A study of Mus musculus with 24 samples.

Results

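RNA of wild-type B cell progenitors was compared with RNA of wild-type common lymphoid progenitors (CLPs) from the same mice. The 6 libraries were those labelled Plcg1+/+Plcg2+/+ among the 24 libraries of the series, 1 CLP library and 1 B cell progenitor library from each of 3 mice, matched by the animal identifier in the label. CLPs had been sorted from bone marrow (BM) as Lin-IL-7R+ cells and B cell progenitors as B220+IgM-IL-7R+ cells. The mice were lethally irradiated CD45.1+ recipients, and the sorted cells were CD45.2+ cells of transplanted BM. Donors of every genotype were young adults on a mixed background that carried the MxCre transgene, in which the type I interferon-inducible Mx promoter drives Cre, and a Rosa-YFP reporter, and all had received poly(I:C). The Plcg1+/+Plcg2+/+ cells used here therefore share Cre, the reporter, poly(I:C) and the transplantation with the mutant cells, and they carry both phospholipase C gamma genes. The number of donors behind the 3 recipients is not stated, so p-values measure the spread between recipients.

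CLPs are BM progenitors that still have access to the B, T, natural killer (NK), innate lymphoid and dendritic cell lineages. On entry into the B lineage, E2A (Tcf3), Ebf1 and Pax5 switch on the genes of the pre-B cell receptor (pre-BCR), among them the surrogate light chains Vpreb1 and Igll1 and the signalling chains Cd79a and Cd79b. Rag1 and Rag2 then rearrange the immunoglobulin genes, while the cytokine receptor Flt3 and the genes of the other lineages are shut down. IL-7, received by both populations through Il7r, supports survival and division at these stages.

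The promoters of Cd79a, Vpreb1 and Igll1 are shown because these 3 genes move together over the 6 libraries, as given below. Each covers 250 bases before and 50 bases after the start of transcription in RefSeq (GRCm38.p6), and capitals mark the E2A-type E-box CAGNTG and the Ebf1-type motif CCCNNGGG, read on both strands. The windows lie at chr7:24897247-24897546 (plus strand), chr16:16869206-16869505 (minus strand) and chr16:16863936-16864235 (minus strand).
Cd79a: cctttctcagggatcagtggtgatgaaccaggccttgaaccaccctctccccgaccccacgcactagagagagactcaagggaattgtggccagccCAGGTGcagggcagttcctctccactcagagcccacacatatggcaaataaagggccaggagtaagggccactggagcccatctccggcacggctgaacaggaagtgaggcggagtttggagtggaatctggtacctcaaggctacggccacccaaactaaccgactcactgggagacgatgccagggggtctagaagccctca
Vpreb1: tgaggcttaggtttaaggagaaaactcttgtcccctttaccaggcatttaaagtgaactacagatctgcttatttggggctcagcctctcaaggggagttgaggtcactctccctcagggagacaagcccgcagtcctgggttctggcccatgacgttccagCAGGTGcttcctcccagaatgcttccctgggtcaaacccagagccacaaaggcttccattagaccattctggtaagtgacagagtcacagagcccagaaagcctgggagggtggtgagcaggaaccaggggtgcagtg
Igll1: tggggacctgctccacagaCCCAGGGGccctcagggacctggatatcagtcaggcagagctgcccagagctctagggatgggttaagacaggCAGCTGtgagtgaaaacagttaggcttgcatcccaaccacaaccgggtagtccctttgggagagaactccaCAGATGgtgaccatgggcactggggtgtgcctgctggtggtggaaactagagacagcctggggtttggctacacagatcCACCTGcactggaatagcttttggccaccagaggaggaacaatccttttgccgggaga
CAGNTG occurred 1 time in the windows of Cd79a and Vpreb1 and 3 times in that of Igll1. CCCNNGGG occurred 1 time, in Igll1, and no match overlapped another. Only exact matches were marked, so a window without a mark may still hold a binding site that departs from these letters. Of 32851 RefSeq promoter windows of this length, 51.4% held CAGNTG and 13.7% held CCCNNGGG.

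Reads on genes ranged from 4291310 to 33219995 in the CLP libraries and from 9826067 to 14212061 in the B cell progenitor libraries, so that 3 reads corresponded to between 0.0903 and 0.699 CPM (read counts scaled to a common library size). The populations differed in 2 features of the libraries before any gene was compared. Between 24.8% and 29.8% of reads fell on no annotated gene in CLPs, against 59.9% to 71.4% in B cell progenitors. Reads that could not be given to 1 gene made up 1.72% to 1.98% of all reads on 1 or more genes in CLPs and 0.851% to 1.02% in B cell progenitors. Tsix, the transcript antisense to Xist, had 0 reads in the 3 CLP libraries and 4.38 to 6.12 CPM of total reads on genes in the B cell progenitor libraries.

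The sorted populations were checked against 8 CLP and 7 B cell progenitor markers before the comparison, and 7 of the 8 CLP markers were highest in the CLP library of mouse 1, with Il7r the exception. All levels below are normalized CPM, that is, CPM of the TMM-scaled library. Flt3, the receptor that marks early lymphoid progenitors, stood at 715 in the CLP library of mouse 1 but at 25.3 in mouse 2 and 57.5 in mouse 3, and at 55.3, 30.2 and 45.8 in the B cell progenitor libraries of the same mice. The CLP library of mouse 2 thus lay below all 3 B cell progenitor libraries and that of mouse 3 just above them, both far below mouse 1. Notch1 read 671.5, 187 and 201 in CLPs and 152 to 200.4 in B cell progenitors, Satb1 373, 96.9 and 96.3 and 95.3 to 108.5, and Ly6a 32.2, 7.16 and 23.2 and 7.06 to 12.7. Ly6a in mouse 3 was above the B cell progenitors as well, and Il7r, on which both populations were sorted, was higher in B cell progenitors than in CLPs in each mouse. Cd79a, a signalling chain of the B cell receptor, showed the opposite order, with 104 in the CLP library of mouse 1, 885 in mouse 2 and 584 in mouse 3, against 508, 650 and 443 in B cell progenitors. Igll1 read 106, 484 and 522 in CLPs and 481, 489 and 301 in B cell progenitors, and Vpreb1 read 61.3, 272 and 289 in CLPs and 230, 222 and 144 in B cell progenitors. For each of these 3 B lineage genes the CLP library of mouse 1 was the lowest of the 6, and that of mouse 2 or mouse 3 was the highest. Gata3, a T and innate lymphoid factor, stood at 83.7, 2.15 and 7.49 in CLPs, against 1.57 to 4.07 in B cell progenitors. The CLP markers other than Il7r thus stood above the B cell progenitors in mouse 1, whereas the libraries labelled CLP of mice 2 and 3 held B lineage RNA at the level of the B cell progenitors. In mouse 3, Flt3, Notch1, Ly6a, Dntt and Gata3 still stood above all 3 B cell progenitor libraries, Flt3, Notch1 and Dntt by little. Kit, Cd34 and Satb1 did not. In bulk RNA, fewer cells of a type and less RNA per cell cannot be told apart. Mpo, a myeloid granule enzyme that neither label implies, lay from 1211 to 1681 in CLPs and from 636 to 2185 in B cell progenitors.

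**Figure D1:**
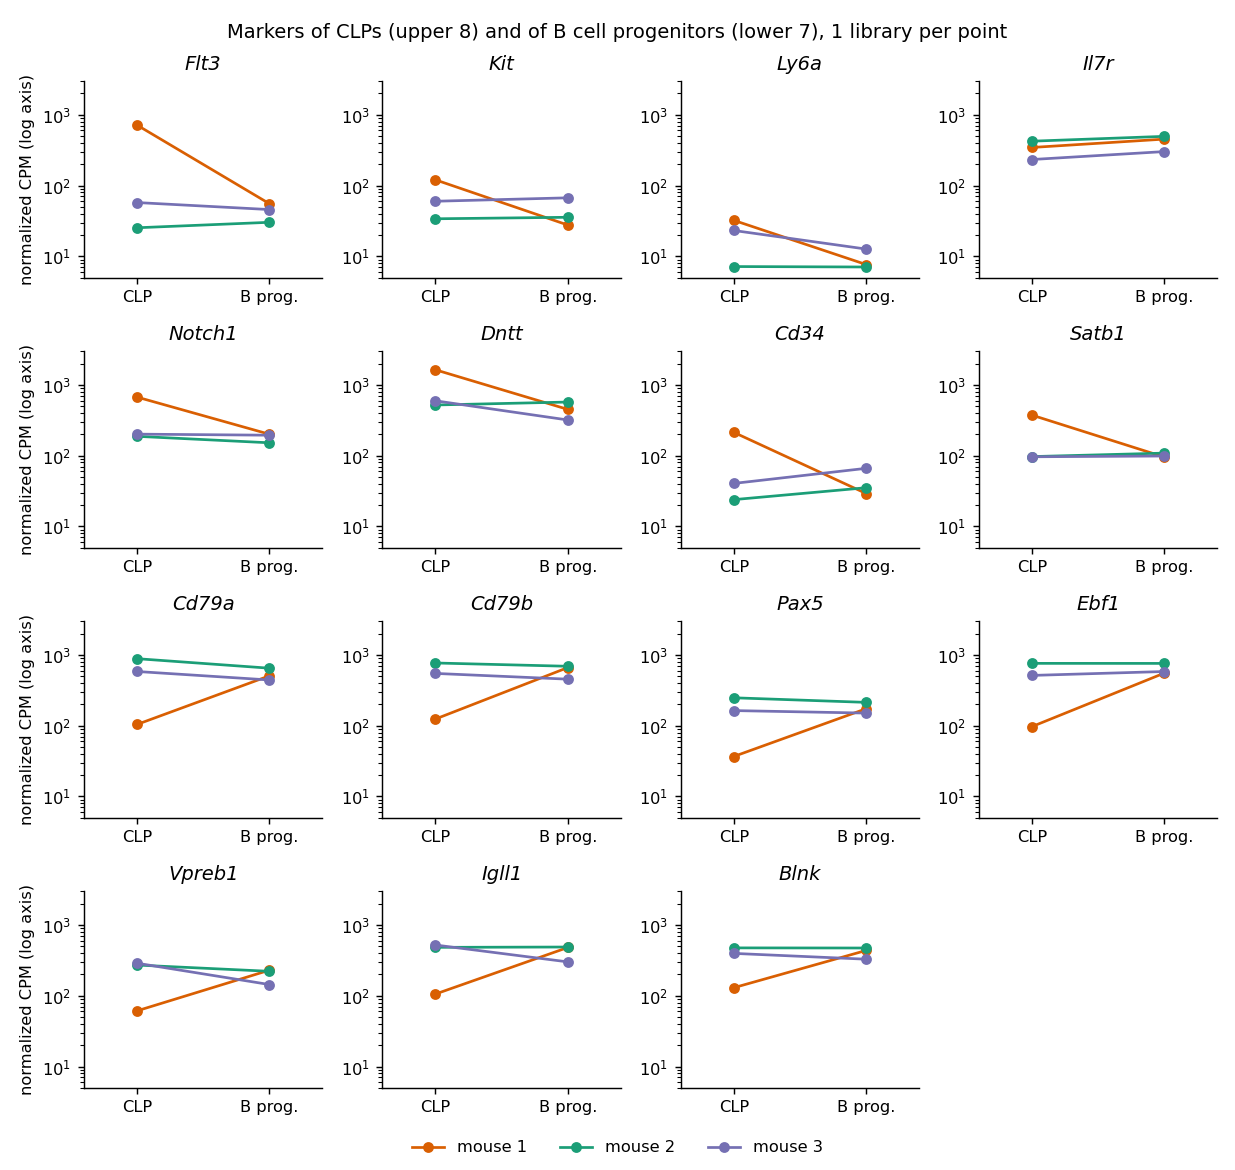
Normalized CPM (log axis) of 8 CLP markers and 7 B cell progenitor markers in the 6 libraries, with a line joining the CLP and the B cell progenitor (B prog.) library of each mouse. The line of mouse 1 is steep for Flt3 (715 to 55.3) and Cd79a (104 to 508), while those of mice 2 and 3 are flatter.

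The comparison of both populations over the 3 mice called 201 of 13234 genes tested (1.52%), and the calls held few genes of lymphoid biology. Calls required a Benjamini-Hochberg adjusted p no higher than 0.05 in edgeR's quasi-likelihood test, with the mouse as a block, and a log2 fold change of 0.5 or more in either direction. By this rule 191 genes rose in B cell progenitors (1.44% of genes tested) and 10 fell (0.0756%). The calls among genes of the lists described below were the rise of Ccne2, the G1/S cyclin E2, and the falls of the ribosomal protein genes Rps16, Rpl10a, Rpl29 and Rpl27, of the glycolytic enzyme Gapdh and of the ATP synthase subunit Atp5l. At an unadjusted p of at most 0.05, 2518 genes (19%) differed, 1602 (12.1%) higher and 916 (6.92%) lower, and the 3 libraries of one population all lay above the 3 of the other for 3329 genes (25.2%). The count of calls rested on which mice entered: it was 1080 without mouse 1, 9 without mouse 2 and 0 without mouse 3 (at an unadjusted p of at most 0.05, 1398 genes without mouse 3). Fits of 2 mice measure the spread poorly. The adjusted p of 4933408J17Rik was 4.43e-178 without mouse 1 and 0.0276 without mouse 2 (edgeR). These counts therefore do not rank the mice. Without the block for mouse the count was 314.

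Most genes that rose lie across a gene on the opposite strand. Of the 191, 170 (89%) have exon bases that overlap an exon of another counted gene on the opposite strand in GENCODE M21, against 20.7% of all genes tested. Only 9 of 10383 genes with no such overlap rose (0.0867%), and 12 more have no single annotated position. The share of genes called higher was 2.34% where up to 10% of the exon bases overlap, 7.57% for 10% to 25%, 17.6% for 25% to 50% and 25% above 50%. For 147 of the 169 partners that were tested, the partner's mean level in CLPs exceeded that of the called gene. The median level of the called genes was 2.81 in CLPs and 27.5 in B cell progenitors, whereas the partners stood at medians of 67.51 and 99.99. The strand setting of the authors' counting, and whether it was the same for both populations, is not given in the sources used here. Where strand was not used, reads of a gene and of its antisense partner cannot be told apart. The part of overlap, of unassigned reads or of library preparation in these rises was not tested. When only the 10383 genes without overlap were fitted, a choice made after seeing the data, 0 genes passed edgeR's test (1624 at an unadjusted p of at most 0.05), and 149 did when all 24 libraries gave the spread.

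**Figure D2:**
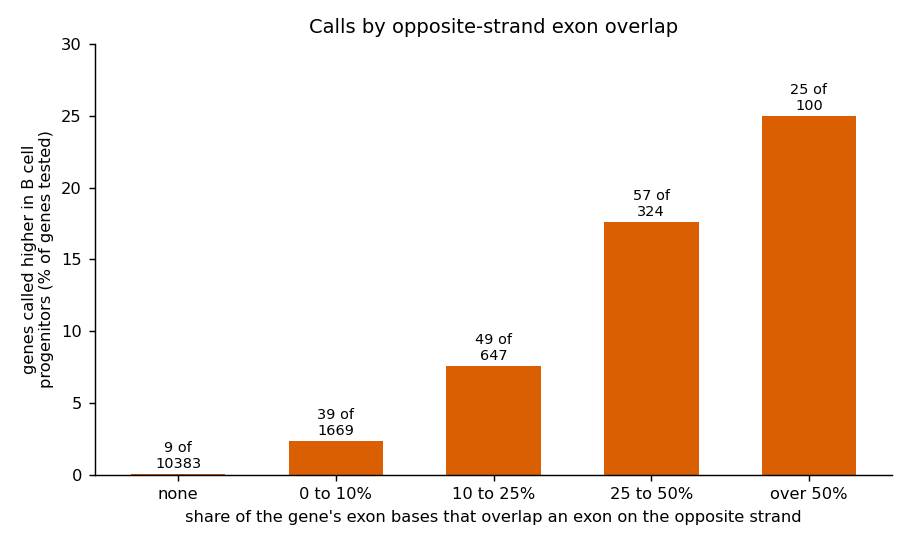
Share of genes tested that were called higher in B cell progenitors (percent, bars) in classes of the share of a gene's exon bases that overlap an exon on the opposite strand. The share is 0.0867% without overlap and 25% above 50%, and the numbers over the bars give called and tested genes.

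**Figure D3:**
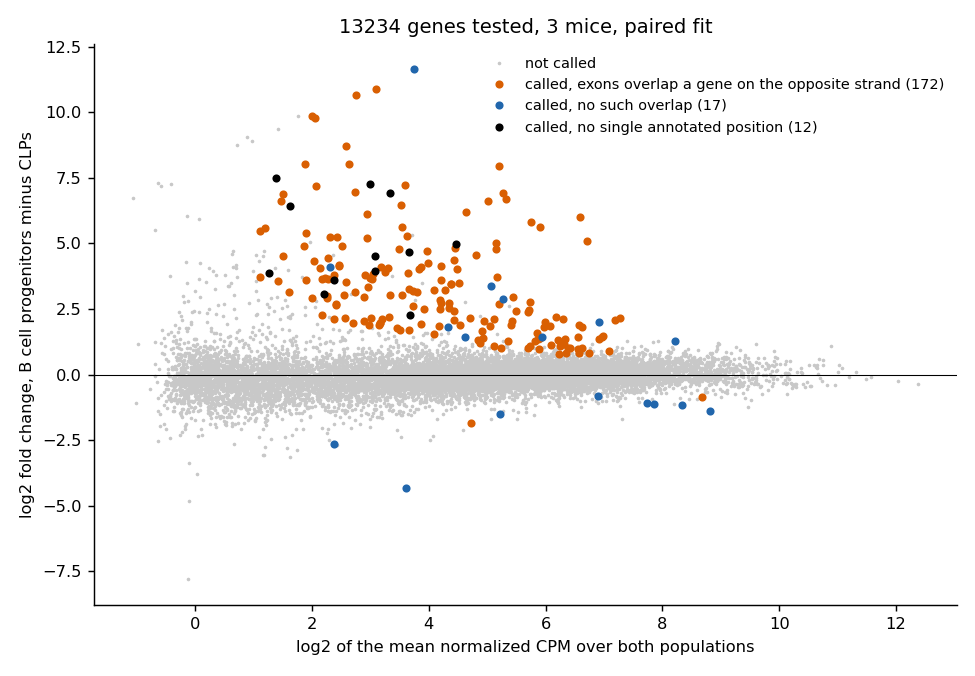
Log2 fold change of B cell progenitors minus CLPs against log2 of the mean normalized CPM, 1 point per gene tested. Called genes are coloured by opposite-strand exon overlap: 172 overlap, 17 do not and 12 have no single annotated position, and the genes called higher outnumber those called lower by 191 to 10.

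The largest rises were in genes with few or no reads in CLPs, which passed the filter on low counts through the B cell progenitor libraries, so that their separation was fixed by the choice of genes. Mir1198, a microRNA hairpin gene, had 0 reads in all 3 CLP libraries and 17.2, 31.7 and 31.5 CPM in the B cell progenitor libraries of mice 1, 2 and 3. Set against a floor of 3 reads over the CLP libraries together, it was at least 475-fold higher. Its hairpin lies at chrX:7807101-7807221 on the plus strand, inside the gene Gripap1 of the same strand and outside its annotated exons, and Gripap1 itself stood at 63.9 to 84.2 in CLPs and 66.7 to 75.5 in B cell progenitors. These poly(A) libraries count reads on the hairpin's locus, not the mature forms. The mature sequences are shown to identify it, with the seed (bases 2 to 8) in capitals, from RefSeq (GRCm38.p6), and the 2 arms have different seeds.
mmu-miR-1198-5p: uAUGUGUUccuggcuggcuugg
mmu-miR-1198-3p: aAGCUAGCcucuaacucauggc
Sco2, a copper chaperone of cytochrome c oxidase, was also at 0 reads in CLPs and stood at 13.63, 20.01 and 17.3 in B cell progenitors, at least 296-fold higher. Its exons overlap those of Ncaph2 over 66.2% of their length, and Ncaph2, a condensin subunit, read 210 to 329 in CLPs and 263 to 339 in B cell progenitors. Bricd5, which overlaps the mTOR complex subunit Mlst8 over its whole length, went from 0 reads to between 12.5 and 15.1, at least 238-fold higher. These folds cover counting error only. Reads that could not be given to 1 gene were left out, so 0 reads on overlapped genes such as Sco2 and Bricd5 need not mean absent RNA. Masp2, a serine protease of the complement system, lay 0.059 to 0.477 in CLPs and 20.6 to 27.7 in B cell progenitors. Gm15441, antisense to the thioredoxin inhibitor Txnip, lay 0.354 to 2.15 in CLPs and 66.3 to 86.2 in B cell progenitors, and Acat3, an acetyl-CoA acetyltransferase, between 0.563 and 0.855 and between 72.9 and 90.6. Acat3 shares 42.6% and Sco2 64.6% of its 50-base stretches with another gene. Such stretches can come from copies or from overlapping genes on the same strand, and reads on them may not be assigned to 1 gene. The other 6 of the 12 largest rises, 1700034P13Rik, E130218I03Rik, 4933408J17Rik, LOC100503496, 1700094J05Rik and AV051173, had log2 fold changes between 6.93 and 8.73, which depend on the prior count where CLPs hold few reads.

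**Figure D4:**
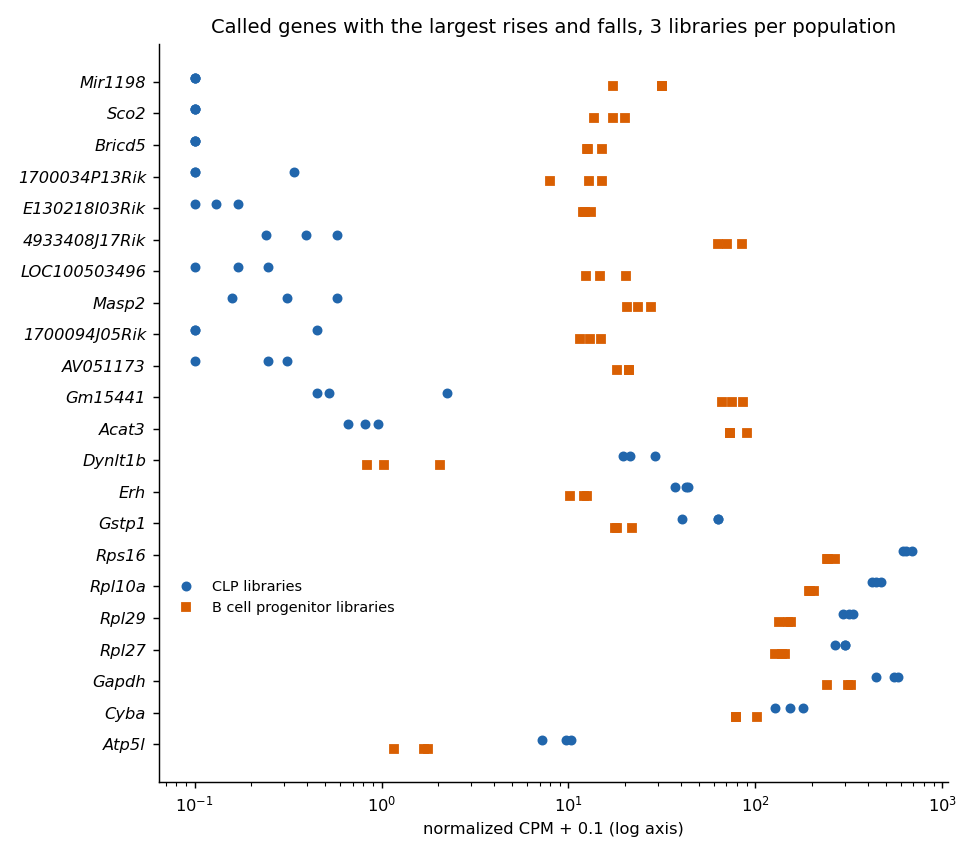
Normalized CPM plus 0.1 (log axis) of the 12 largest rises and of the falls in the 3 CLP (circles) and 3 B cell progenitor (squares) libraries. The choice of genes fixed the separation of the populations, as for Rps16, at 617 to 691 in CLPs and 243 to 267 in B cell progenitors.

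Foxp3, the regulatory T cell factor, also rose and was chosen here after its values were seen. It read 1.20, 0.716 and 1.15 in CLPs and 13.5, 16.5 and 16.2 in B cell progenitors, with a log2 fold change of 3.83 ± 0.30 (SE, n = 3 mice, adjusted p = 0.00768, edgeR). Its exons overlap those of Ccdc22 on the opposite strand over 18.7% of their length, and Ccdc22 read 30.5 to 39.1 in CLPs and 40.1 to 51.5 in B cell progenitors. The T cell receptor chain gene Cd247 read 23.4, 3.58 and 1.95 in CLPs and 48.4, 32.7 and 37.8 in B cell progenitors, a log2 fold change of 2.76 that missed the threshold (adjusted p = 0.173, edgeR). Of its exon bases, 56.4% overlap Pou2f1, the gene of the factor Oct1, whose own log2 fold change was 0.88 (adjusted p = 0.141, edgeR).

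The 9 rises without overlap were Mir1198, Mir682, Mroh2a, D730005E14Rik, Tmem206, Thyn1, Hjurp, Rpl14-ps1 and Ppp2r5a, named here after their values were seen. Hjurp, the chaperone that loads the centromeric histone Cenpa, read 22.6, 39.9 and 36.7 in CLPs and 70.7, 104 and 91.9 in B cell progenitors (log2 fold change 1.45 ± 0.13, SE, n = 3 mice, adjusted p = 0.0108, edgeR). Ppp2r5a, a regulatory subunit of protein phosphatase 2A, read 135, 220 and 167 in CLPs and 401, 451 and 403 in B cell progenitors. Tmem206, a membrane protein, read 54.6, 51.8 and 39.5 against 179, 222 and 178. Mir682 and the pseudogene Rpl14-ps1 share 100% and 78.3% of their 50-base stretches with other genes.

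The largest fall was in a gene with near-identical copies. Dynlt1b, a dynein light chain gene, read 28.9, 19.6 and 21.3 in CLPs and 1.96, 0.737 and 0.929 in B cell progenitors (log2 fold change -4.32 ± 0.28, SE, n = 3 mice, adjusted p = 0.00535, edgeR). It shares 83.2% of its 50-base stretches with other genes. Its neighbour Dynlt1a read 4.08 to 6.21 in CLPs and 6.36 to 11.1 in B cell progenitors and passed no threshold (log2 fold change 0.92, adjusted p = 0.213, edgeR). The splicing-associated gene Erh read 37.1 to 43.7 in CLPs and 10.1 to 12.4 in B cell progenitors, and Gstp1, a glutathione transferase, 40.3 to 63.2 and 17.6 to 21.7. Cyba, the p22phox subunit of the NADPH oxidase, read 126 to 181 and 78.4 to 102. Of the 10 falls, 8 share at least 20% of their 50-base stretches with another gene, against 5.24% of all genes tested. The part of read assignment between copies in the falls was not tested.

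Ribosomal protein genes made up 4 of the 10 falls. Rps16 read 617, 691 and 643 in CLPs and 244, 267 and 243 in B cell progenitors (log2 fold change -1.37 ± 0.11, SE, n = 3 mice, adjusted p = 0.00997, edgeR). Rpl10a, Rpl29 and Rpl27 had log2 fold changes of -1.17, -1.10 and -1.08. Of 75 cytosolic ribosomal protein genes tested, 4 fell (0.0756% over all genes) and 0 rose, 36 were lower (6.92%) and 1 higher (12.1%) at an unadjusted p of at most 0.05, and 51 had libraries that did not overlap (25.2% of all genes tested). The median log2 difference was -0.33, against -0.03 over all genes, and -0.40, -0.14 and -0.43 in mice 1, 2 and 3. Many ribosomal protein genes have processed pseudogenes, and in total they took 51950 to 54220 CPM in CLPs and 40690 to 47520 in B cell progenitors.

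Cell cycle genes gave, of the 34 lists, the one with the most members at the unadjusted threshold and higher in B cell progenitors. Among 36 mitosis and G2/M genes, 0 passed the adjusted threshold with edgeR, and 15 were higher and 0 lower at an unadjusted p of at most 0.05 (12.1% higher over all genes). With DESeq2 8 rose, against 442 of all 13234 genes. With the spread from all 24 libraries 2 rose (555 of 17212 genes), and without the block for mouse 0 (294 of 13234). The median log2 difference was 0.48 over the fit and 1.06, 0.09 and 0.33 in mice 1, 2 and 3. Ccna2, cyclin A2, had a log2 difference of 1.10 ± 0.26 (SE, n = 3 mice, adjusted p = 0.171, edgeR), and 12.5% of its exon bases overlap Exosc9, an RNA exosome subunit whose log2 fold change was 1.91 (adjusted p = 0.00515, edgeR). Top2a, the topoisomerase that untangles replicated DNA, had 0.59 ± 0.23 and Mki67, the proliferation marker Ki-67, 0.55 ± 0.25 (adjusted p = 0.253 and 0.302, edgeR). The list of D cyclins, their kinases and inhibitors also holds Ccne2, and 1 of its 20 tested genes rose (1.44% over all genes). That gene, Ccne2, read 24.2, 37.0 and 26.9 in CLPs and 139, 144 and 102 in B cell progenitors. Its log2 fold change was 2.14 ± 0.16 (SE, n = 3 mice, adjusted p = 0.00768, edgeR). Ccne2 (chr4:11191351-11204779, GRCm38) overlaps Ints8 over 17.4% of its exon bases, and Ints8, an Integrator subunit, rose as well, by 1.37 (adjusted p = 0.0273, edgeR). Ccnd2 and Ccnd3, D-type cyclins of lymphocytes, had log2 differences of -0.43 and 0.36 that passed no threshold. Of 36 DNA replication genes, 0 passed, with a median of 0.08.

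No gene of the B lineage lists passed the threshold. Of 31 B lineage transcription factors 0 were called, 4 (Tcf12, Myb, Cbfb and Pou2f1) were higher at an unadjusted p of at most 0.05 (12.1% over all genes), a share near the background, and the median was 0.24. Ebf1 read 97.2, 760 and 514 in CLPs and 555, 759 and 583 in B cell progenitors (log2 difference 0.85 ± 0.54, SE, n = 3 mice, adjusted p = 0.411, edgeR). Pax5 read 36.7, 248 and 164 in CLPs and 174, 214 and 151 in B cell progenitors. For both factors the CLP library of mouse 1 was lowest, and that of mouse 2 was above all 3 B cell progenitor libraries. Tcf3, which encodes E2A, read 432, 1385 and 852 in CLPs and 1137, 1172 and 921 in B cell progenitors. Cbfb, the partner of the Runx factors, read 257, 375 and 309 against 442, 556 and 469, with no overlap between the populations and no overlapping gene (log2 difference 0.65 ± 0.12, adjusted p = 0.107, edgeR).

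Pre-BCR and recombination genes followed the same split between mice. Of 20 genes of the pre-BCR complex and its signalling 0 passed and 0 reached an unadjusted p of 0.05. Their median difference was 1.16 in mouse 1, -0.22 in mouse 2 and 0.05 in mouse 3. With both libraries of mouse 1 left out, Vpreb1 had a log2 difference of -0.64 and Igll1 of -0.38 (edgeR, 2 mice, too few to measure the spread). Rag1 read 173, 735 and 508 in CLPs and 982, 894 and 571 in B cell progenitors (log2 difference 0.95 ± 0.51, adjusted p = 0.352, edgeR), and Rag2 read 36.8, 93.3 and 60.8 against 128, 118 and 63.5. Of 20 V(D)J recombination and end joining genes 0 passed, with medians of 0.60, 0.17 and 0.04 in mice 1, 2 and 3. Dntt, the terminal transferase that adds bases at the joins, read 1634, 520 and 596 in CLPs and 450, 572 and 319 in B cell progenitors. Of 33 B cell surface genes 0 passed, and Il7r, the receptor both gates required, read 345, 424 and 233 in CLPs and 453, 496 and 302 in B cell progenitors, higher in 3 of 3 mice (log2 difference 0.33 ± 0.12, adjusted p = 0.235, edgeR). Blnk, the adaptor downstream of the pre-BCR, read 130, 475 and 397 against 437, 473 and 329.

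The stem cell and other lymphoid genes named here were highest in the CLP library of mouse 1. Of 30 stem and multipotent progenitor genes 0 passed, with a median difference of -1.72 in mouse 1, 0.07 in mouse 2 and -0.06 in mouse 3. Kit, the stem cell factor receptor, read 121, 33.9 and 60.0 in CLPs and 27.7, 35.6 and 67.1 in B cell progenitors, and Cd34 read 214, 23.9 and 40.5 against 29.1, 35.2 and 66.1. Hoxa9, a homeobox factor of early progenitors, read 53.2, 5.49 and 10.7 against 6.373, 6.004 and 11.01. Of 35 T, NK and innate lymphoid genes 0 passed, with medians of -2.91, 0.05 and -0.46 in the 3 mice. Tcf7, a T cell and innate lymphoid factor, read 193, 19.3 and 21.7 in CLPs and 9.31, 13.5 and 15.7 in B cell progenitors, and Il2rb, an IL-15 receptor chain, 151, 20.8 and 33.2 against 11.4, 15.9 and 29.5. For these 5 genes the remaining 5 libraries lay below the CLP library of mouse 1. In sum the 40 T, NK and innate lymphoid genes took 2305 CPM in that library, 361 and 556 in the other CLP libraries and 373 to 491 in B cell progenitors.

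**Figure D5:**
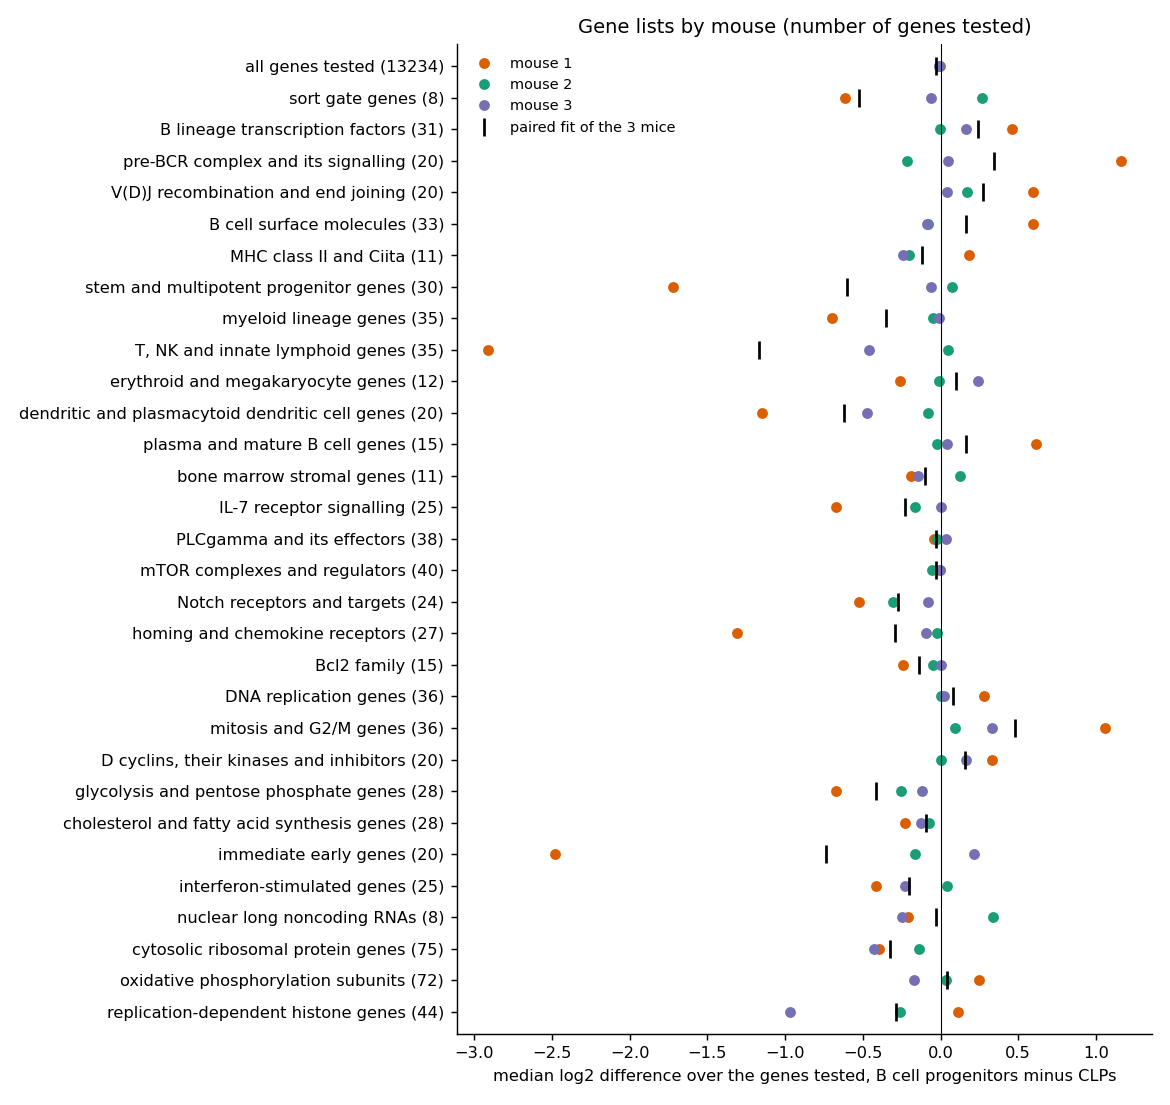
Median log2 difference of B cell progenitors minus CLPs over the tested genes of each list with 8 or more of them, for each mouse (points) and for the paired fit (vertical ticks), with the number of genes tested in brackets. Mouse 1 stands apart for T, NK and innate lymphoid genes (-2.91, against 0.05 and -0.46) and stem genes, while the ribosomal protein genes are below 0 in each mouse.

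Other cell types were measured in both populations. Of 35 myeloid genes 0 passed, with a summed level 3696 to 6606 CPM in CLPs and 2634 to 7012 in B cell progenitors, highest in the B cell progenitor library of mouse 3. Dendritic cell genes (20 tested) had medians of -1.15, -0.08 and -0.48 in the 3 mice and 0 calls. Irf8, a factor of CLPs, dendritic and B cells, read 1476, 498 and 612 in CLPs and 483, 439 and 493 in B cell progenitors. Erythroid and megakaryocyte genes (12 tested), plasma and mature B cell genes (15), stromal genes (11) and MHC class II genes (11) had 0 calls and medians between -0.12 and 0.16. Of the 8 tested sort gate genes 0 passed, and Ptprc, whose B220 isoform defined the B cell progenitor gate and was part of the lineage cocktail for CLPs, read 623, 356 and 475 in CLPs and 463, 441 and 562 in B cell progenitors. Gene counts do not separate the B220 isoform. Of the immunoglobulin list Jchain alone was tested.

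No signalling gene on the lists passed the threshold. Plcg1 read 104, 110 and 98.2 in CLPs and 111, 84.6 and 77.0 in B cell progenitors (log2 difference -0.21 ± 0.14, SE, n = 3 mice, adjusted p = 0.423, edgeR), and Plcg2 read 190, 276 and 216 against 211, 238 and 234 (0.02 ± 0.13, adjusted p = 0.954, edgeR). Of 38 genes of the PLCgamma isoforms and their effectors 0 passed, and 6 were higher and 2 lower at an unadjusted p of at most 0.05, shares near the 12.1% and 6.92% over all genes. Ppp3r1, the regulatory subunit of calcineurin, had a log2 difference of 0.50 (adjusted p = 0.134, edgeR). Of 25 genes of IL-7 receptor signalling 0 passed and 4 were lower at an unadjusted p of at most 0.05 (6.92% over all genes), among them the kinase Jak3 (-0.76, adjusted p = 0.188, edgeR). The mTOR list (40 tested, median -0.03), the Notch list (24, median -0.27), the homing receptors (27, median -0.30) and the Bcl2 family (15, median -0.14) had 0 calls. Bcl2, the survival factor, had a log2 difference of -0.91 and Cxcr4, the BM retention receptor, 0.26, and neither passed.

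Metabolic and stress lists gave few calls. Of 28 glycolysis and pentose phosphate genes 1 fell (0.0756% over all genes). At an unadjusted p of at most 0.05, 10 were lower and 2 higher (6.92% and 12.1% over all genes). The median was -0.42, with -0.68, -0.25 and -0.12 in the 3 mice. Gapdh read 444, 579 and 554 in CLPs and 241, 326 and 314 in B cell progenitors, a log2 fold change of -0.84 ± 0.11 (SE, n = 3 mice, adjusted p = 0.0395, edgeR), and 24.7% of its 50-base stretches occur in other genes. Gpi1, the second enzyme of the pathway, had -0.68 and Pkm, pyruvate kinase, -0.43 (adjusted p = 0.204 and 0.221, edgeR). Of 72 oxidative phosphorylation subunits 1 fell (0.0756% over all genes). It was Atp5l, which read 7.11 to 10.3 in CLPs and 1.07 to 1.67 in B cell progenitors. Immediate early genes (20 tested) had 0 calls and medians of -2.48, -0.17 and 0.21, and Fos, whose RNA is induced by cell handling, read 2116, 760 and 1241 in CLPs and 405, 841 and 1770 in B cell progenitors. Interferon-stimulated genes (25), cholesterol and fatty acid genes (28), histone genes (44), glutamate and GABA receptor genes (6) and nuclear long noncoding RNAs (8) had 0 calls. Of 1107 olfactory and 330 vomeronasal receptor genes among the counted genes, 2 and 1 were tested, and the summed olfactory level was 78.6 to 144 in CLPs and 36.5 to 375 in B cell progenitors.

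The difference between populations was set against the same difference in the other 3 genotypes, which were compared through the same 6 wild-type libraries. Over 17212 genes tested, 0 genes (0%) passed for Plcg1-/-Plcg2-/-, for Plcg1-/-Plcg2+/+ or for Plcg1+/+Plcg2-/- minus Plcg1+/+Plcg2+/+ (edgeR interaction contrasts with the mouse as a block), and DESeq2 also called 0 in each. At an unadjusted p of at most 0.05, 356, 380 and 168 of the 17212 genes passed, each fewer than this threshold passes where no gene differs. With 3 mice per genotype, 0 calls do not show that the difference between populations was the same. In that fit the wild-type comparison called 620 genes (3.6%), 555 higher and 65 lower, beside 3.42%, 2.98% and 3.32% of genes for the same step in the 3 mutant genotypes in the order above. In it, 15 ribosomal protein genes were called lower and 1 higher, and 0 to 2 genes in either direction on each other list. Of the 31 B lineage factors 2 rose (555 of 17212 over all genes), among them Cbfb (log2 fold change 0.65, adjusted p = 0.00156, edgeR). Bst2, a restriction factor outside that list, fell (-0.9955, adjusted p = 0.0329, edgeR). Marker levels in the mutant CLP libraries also ranged widely: in CPM of total reads on genes, Flt3 lay between 44.9 and 180 in Plcg1-/-Plcg2-/-, between 71.7 and 404 in Plcg1-/-Plcg2+/+ and between 84.8 and 424 in Plcg1+/+Plcg2-/- CLPs, against 24.7 to 733 in wild-type CLPs. Cd79a was at 262 or above in every mutant CLP library and lay between 107 and 865 in the wild-type ones.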

How the data were processed

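Poly(A) RNA of the sorted cells was sequenced on an Illumina NextSeq instrument, and, per the labels, reads were aligned with STAR 2.5.0a to mm10. The authors deposited, for each library, raw counts of reads on 24421 genes by symbol, without normalization. The counting program and its strand setting are not given in the sources used here. The last 2 entries of each table, reads on no gene (24.8% to 29.8% in CLPs, 59.9% to 71.4% in B cell progenitors) and ambiguous reads, were left out of library sizes and tests. The members and gene lists were chosen with earlier results of these data known.

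The 6 Plcg1+/+Plcg2+/+ libraries were fitted in R 4.3.3 with edgeR 4.0.16 (glmQLFit and glmQLFTest after filterByExpr and TMM scaling), with the mouse as a block. CLPs and B cell progenitors of one number came from the same mouse by the identifier in the label. The deviations of paired libraries from their group means correlated at 0.0814, 0.412 and 0.135 in mice 1, 2 and 3, and those of libraries from different mice at -0.31 to 0.136. Calls had a Benjamini-Hochberg adjusted p no higher than 0.05 and a log2 fold change of 0.5 or more in either direction. Standard errors come from the F statistic, and the prior count was 2. Interactions used all 24 libraries. No replicate was a copy of another (chi-square divided by its degrees of freedom 12 or more). Named genes were the 12 largest rises and the 9 falls among calls with at least 10 CPM and one direction in all 3 mice, the members of 34 lists, Plcg1 and Plcg2. The scripts were tested on simulated data. Opposite-strand exon overlap and 50-base stretches shared with other genes were computed from GENCODE M21 (GRCm38), in which 23982 symbols had 1 gene. Alternatives, with DESeq2 1.42.0 among them, are given in the closing section. Python 3.11.15 and matplotlib 3.10.9 drew the figures. The floor of 3 reads covers counting error only. 1 marker gene is not reported here.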

Additional observations from a re-analysis of the deposited data

Results flagged for a closer look

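Reads outside the annotated genes were more frequent in the B cell progenitor libraries than in the CLP libraries. They made up 71.4%, 62.5% and 59.9% of all reads in the B cell progenitor libraries of mice 1, 2 and 3, and between 24.8% and 29.8% in the CLP libraries of the same mice. These reads enter no comparison of genes, and their source was not tested. Groups of 3 libraries are too small for a test of single outlying samples.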

How the results depend on the processing

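The 3 mice bound every result. Leaving out 1 mouse gave between 0 calls (without mouse 3) and 1080 (without mouse 1), and 9 without mouse 2, from fits of 2 mice that measure the spread poorly. The pairing by mouse changed the count as well: 314 genes were called without the replicate block, 195 of them among the 201. Without the filter on low counts 499 genes were called (22989 tested), with DESeq2 514 and with the spread taken from all 24 libraries 620, and each of these sets held all 201. With the share of reads on no gene as a covariate over the 24 libraries 2141 genes were called, 1069 higher and 1072 lower, so that 49.9% were higher against 95% before, and 158 were shared. Over the series that share was 17.9% to 45.2% in CLPs and 59.9% to 87.3% in B cell progenitors. It separates the populations completely, so that this fit cannot tell the covariate from the population. Of the alternatives chosen after seeing the data, the genes without overlap alone gave 0 calls over the 6 libraries and 149 over all 24. Leaving out the CLP library of mouse 1, 2 or 3, unpaired, gave 327, 217 or 173, against 314 with all 6 libraries and no block. The cause was not tested. Size factors, total reads, thinning and a stricter fold gave 192 to 202. The interactions stayed at 0 calls under each alternative run, with edgeR and DESeq2.

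No marker gene passed the threshold in the paired comparison, and the direction of most was not fixed when 1 mouse was left out. The differences with the covariate, given next, cannot be read as directions, since its values did not overlap between the populations. With the covariate, the log2 difference became 0.0145 for Plcg1, -0.129 for Plcg2, 3.76 for Flt3, 1.56 for Kit, 0.392 for Ly6a, 1.96 for Notch1, 1.22 for Dntt, 2.62 for Cd34, 2.11 for Satb1, -1.41 for Cd79a, -1.81 for Cd79b, -1.66 for Pax5, -1.01 for Ebf1, -1.91 for Vpreb1, -1.65 for Igll1 and -1.13 for Blnk. Plcg2 was at -0.0123 without TMM, and Vpreb1 at -0.059 without the replicate block. With 1 mouse left out, the log2 difference ranged from -0.0471 to 0.129 for Plcg2, -1.07 to 0.141 for Kit, -1.24 to 0.669 for Cd34, -0.967 to 0.109 for Satb1, -0.409 to 0.938 for Cd79a, -0.199 to 1.12 for Cd79b, -0.151 to 1.05 for Pax5, -0.642 to 0.793 for Vpreb1, -0.38 to 1.09 for Igll1 and -0.127 to 0.858 for Blnk. The sign turned without mouse 1 for all 10 of these genes, and for Plcg2 also without mouse 3.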
